A study of Mus musculus with 6 samples.

Results

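The genes described here encode the machinery of cell division: 53 mouse genes listed by symbol, of which 18 act at the entry into S phase and in DNA replication and 35 act in mitosis. The list follows gene function and sets no condition on the measured values, but it was drawn up with earlier results of these data known. A reporter was found and tested for 52 of the 53 genes, among 25729 genes tested with a symbol. Ube2c, a ubiquitin-conjugating enzyme that works with the anaphase-promoting complex, was not analysed here.

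Transcript levels were measured in fat, named eWAT in the labels, of mice at 9 weeks of age. There were 3 samples from ob/ob mice, which carry the obese mutation of the leptin gene on both chromosomes and become obese, and 3 from lean ob/+ mice, which carry it on 1. The labels give the genetic background C57BLKS/J for the reference RNA. Each sample was labelled with Cy5 and hybridised on its own two-colour Agilent array against Cy3-labelled RNA of combined ob/+ samples, 3 by the header of the deposited table. A level is given below as the log2 ratio of the sample to this lean pool, so that 0 means the level of the pool and 1 means a doubling. A gene is represented by its brightest reporter, and a gene was called higher or lower at an adjusted p under 0.05 in limma, with Benjamini-Hochberg adjustment over 39407 reporters. Whether each sample is a separate animal is not said in the labels, and p-values therefore reflect only how these samples varied.

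In most adult tissues few cells divide, and transcripts of the division machinery are scarce. Cells committed to division switch on E2F transcription factors, which drive genes for nucleotide supply, for the loading and firing of replication origins and for the replicative helicase. Later in the cycle, the MuvB complex with B-Myb and FOXM1 drives the cyclin B, kinase, kinetochore and spindle genes that carry out mitosis. In the fat of obese mice, proliferation of macrophages and proliferation of adipocyte precursors have been described.

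Most members were higher in ob/ob. Of the 52 tested, 45 were called higher, 0 were called lower and 7 were not called, where 12.5% of all tested genes were called higher and 12.1% lower. The median log2 fold change of the 52 members was 1.04, a 2.05-fold level, and the median of all genes was 0.00. At least 2-fold rises were called for 28 members, where 3.6% of all genes met that criterion. All 3 ob/ob arrays lay above all 3 ob/+ arrays for 47 members, where 20.3% of all genes did so. The exceptions were Mcm7, with its ob/ob arrays wholly below, and Mki67, Mcm4, Tpx2 and Kif23, whose groups overlapped or touched.

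The count of calls rests on 3 arrays a group. On omission of an ob/+ array it was 24 (replicate 1), 29 (replicate 2) or 22 (replicate 3). The share of all genes called higher was then 5.93%, 9.03% and 6.65%, in the same order. On omission of an ob/ob array it was 47 (replicate 1), 30 (replicate 2) or 22 (replicate 3), and the share of all genes was 11.2%, 8.37% and 6.29%. Of the 45 called members, 19 kept their call under all 6 omissions, and 26 lost it under at least 1. The fold changes of the 45 members were above 0 in all 270 of these values. This had to be so, because every ob/ob array lay above every ob/+ array for each of the 45. It is therefore no measure of stability. Quantile normalization of the log2 ratios forces the ratios of all arrays to 1 distribution. After it, 7 members were called, where 1.21% of all genes were called higher.

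**Figure D1:**
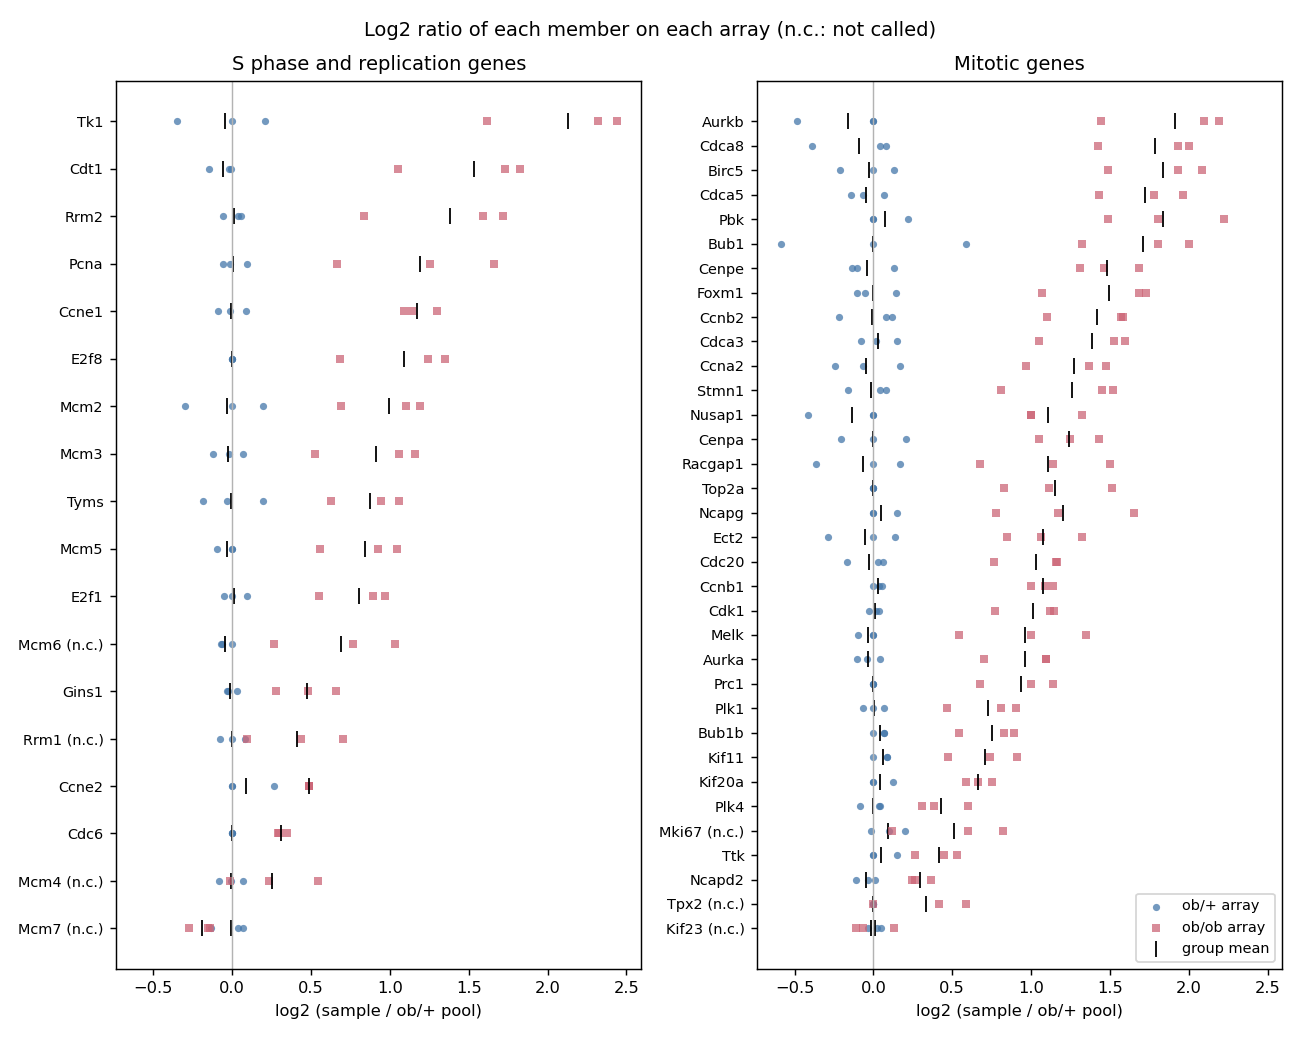
Log2 ratio of the sample to the lean pool for each member on each array. Circles are the 3 ob/+ arrays, squares the 3 ob/ob arrays and bars the group means, with genes ordered by log2 fold change in each panel, and n.c. marks the 7 members not called. All ob/ob squares lie above all ob/+ circles for 47 members, only just so for Rrm1, and the largest rises are those of Tk1 and Aurkb.

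Promoters were set beside the expression values because the members moved together and fall into classes with different known regulators. A window of 250 bases before to 50 after the gene's start, from RefSeq on GRCm38.p6, was matched by symbol for 15 of the 18 S phase and replication members and 27 of the 34 tested mitotic members, taking the first start listed for a gene. Each window was searched on both strands for the E2F sites TTCCCGC and TTGGCGC, for the cell cycle homology region (CHR) TTTGAA and TTCGAA, which is bound by MuvB, and for the CCAAT box, which is bound by NF-Y. The reverse of TTGGCGC is GCGCCAA, which can overlap a CCAAT box, and TTGGCGCCAA counts on each strand. In the windows printed below, capitals mark these matches and all other bases are in lower case. Ccnb1, Cenpe, Ccne1 and Cdc6 are shown as the members of each class with the lowest p that had a window, and Ccnb2, Cdc20, Mcm3 and Mcm5 were added after their matches were seen, as examples of the motifs typical of each class.

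Ccnb2 (chr9:70421505-70421804, minus strand) and Cdc20 (chr4:118437294-118437593, minus strand) show the arrangement of a CHR with CCAAT boxes close to the start of a mitotic gene.
Ccnb2: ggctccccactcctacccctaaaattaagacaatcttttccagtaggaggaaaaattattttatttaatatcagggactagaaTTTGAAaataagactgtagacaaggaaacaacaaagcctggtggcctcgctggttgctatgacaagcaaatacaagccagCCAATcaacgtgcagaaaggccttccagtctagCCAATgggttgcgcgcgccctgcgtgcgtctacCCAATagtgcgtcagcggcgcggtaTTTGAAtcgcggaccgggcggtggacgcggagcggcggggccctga
Cdc20: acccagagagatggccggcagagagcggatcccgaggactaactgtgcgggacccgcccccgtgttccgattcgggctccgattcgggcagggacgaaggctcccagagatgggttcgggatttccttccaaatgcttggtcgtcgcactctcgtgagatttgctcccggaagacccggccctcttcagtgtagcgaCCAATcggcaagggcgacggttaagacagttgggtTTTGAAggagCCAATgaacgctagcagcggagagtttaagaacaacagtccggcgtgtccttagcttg

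Mcm3 (chr1:20820263-20820562, minus strand) and Mcm5 (chr8:75109259-75109558, plus strand) hold more than 1 E2F match each and no CHR match.
Mcm3: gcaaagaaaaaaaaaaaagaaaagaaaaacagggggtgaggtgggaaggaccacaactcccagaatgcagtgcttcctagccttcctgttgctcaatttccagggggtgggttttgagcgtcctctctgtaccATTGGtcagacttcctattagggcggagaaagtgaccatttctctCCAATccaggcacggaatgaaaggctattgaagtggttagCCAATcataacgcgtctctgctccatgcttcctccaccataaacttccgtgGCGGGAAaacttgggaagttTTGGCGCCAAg
Mcm5: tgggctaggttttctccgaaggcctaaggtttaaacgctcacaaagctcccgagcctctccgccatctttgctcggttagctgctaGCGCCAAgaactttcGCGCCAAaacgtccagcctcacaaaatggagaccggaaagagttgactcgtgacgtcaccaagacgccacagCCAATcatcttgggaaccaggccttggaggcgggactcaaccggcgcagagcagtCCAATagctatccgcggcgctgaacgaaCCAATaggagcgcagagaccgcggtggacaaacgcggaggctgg

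Among the members with the lowest p, Ccnb1 (chr13:100786437-100786736, minus strand) held 2 CCAAT boxes, 1 of them overlapping an E2F match. It held no match to the CHR sequences searched, TTTGAA and TTCGAA. Cenpe (chr3:135212313-135212612, plus strand) held 1 CCAAT box. Ccne1 (chr7:38107441-38107740, minus strand) held none of the motifs in this window, and Cdc6 (chr11:98907901-98908200, plus strand) held 1 E2F match.
Ccnb1: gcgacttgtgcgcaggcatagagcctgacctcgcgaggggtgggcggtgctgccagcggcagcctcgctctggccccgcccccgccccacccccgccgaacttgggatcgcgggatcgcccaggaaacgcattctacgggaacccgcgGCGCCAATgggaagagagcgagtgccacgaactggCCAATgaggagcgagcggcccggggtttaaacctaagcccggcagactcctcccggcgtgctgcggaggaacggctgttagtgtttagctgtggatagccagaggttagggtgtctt
Cenpe: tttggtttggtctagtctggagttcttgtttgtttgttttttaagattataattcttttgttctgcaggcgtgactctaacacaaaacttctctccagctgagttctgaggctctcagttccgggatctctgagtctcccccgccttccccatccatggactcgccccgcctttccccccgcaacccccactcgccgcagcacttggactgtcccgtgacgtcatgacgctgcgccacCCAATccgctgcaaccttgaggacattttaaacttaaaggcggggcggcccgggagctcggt
Ccne1: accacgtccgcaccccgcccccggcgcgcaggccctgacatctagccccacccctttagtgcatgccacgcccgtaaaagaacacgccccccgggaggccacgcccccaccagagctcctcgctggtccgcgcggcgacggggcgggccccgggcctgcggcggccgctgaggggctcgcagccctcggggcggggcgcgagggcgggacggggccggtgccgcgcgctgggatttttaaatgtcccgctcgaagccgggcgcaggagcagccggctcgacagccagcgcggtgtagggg
Cdc6: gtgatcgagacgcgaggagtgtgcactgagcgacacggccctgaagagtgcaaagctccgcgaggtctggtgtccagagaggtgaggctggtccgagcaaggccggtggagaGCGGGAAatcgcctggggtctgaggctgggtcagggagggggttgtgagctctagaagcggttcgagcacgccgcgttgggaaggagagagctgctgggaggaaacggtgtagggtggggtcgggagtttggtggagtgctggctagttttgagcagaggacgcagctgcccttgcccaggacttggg

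E2F matches were more frequent in the S phase windows and CHR matches in the mitotic windows. An E2F match was present in 8 of 15 windows of S phase and replication members (53.3%), in 8 of 27 mitotic windows (29.6%) and in 6.93% of the 27025 windows of all genes. A CHR match was present in 3 of 15 S phase windows, in 21 of 27 mitotic windows (77.8%) and in 19.4% of all windows. A CCAAT box was present in 60.0% of S phase windows, 81.5% of mitotic windows and 37.9% of all windows, and a CHR together with a CCAAT box in 3 of 15 S phase windows, 74.1% of mitotic windows and 7.70% of all windows. Among members called higher in ob/ob, a CHR was found in 19 of 25 mitotic windows and an E2F match in 5 of 12 S phase windows. The uncalled members Mcm6, Mcm7 and Rrm1 each held an E2F match, and the uncalled Mki67 and Kif23 each held a CHR. A match is a match of letters and was not tested as a binding site.

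**Figure D2:**
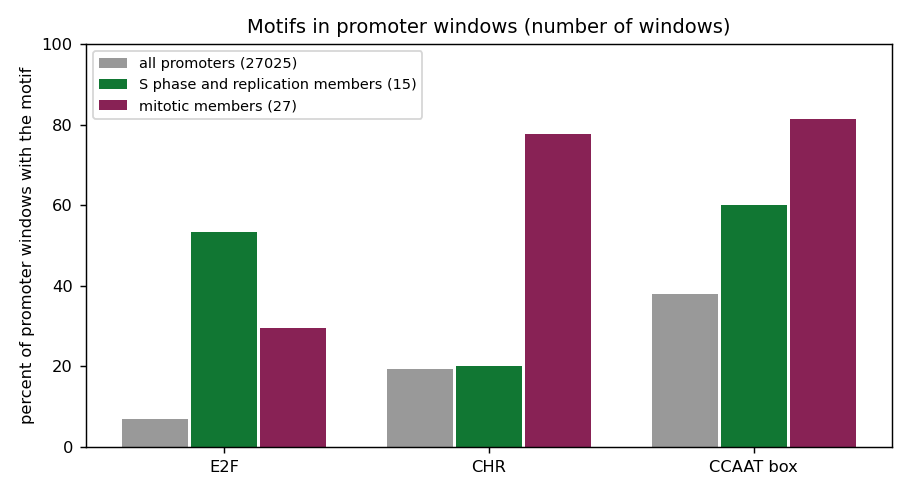
Percent of promoter windows (250 bases before to 50 after the start) that hold at least 1 match to E2F, CHR or CCAAT on either strand. Bars give all 27025 windows, the 15 windows of S phase and replication members and the 27 windows of mitotic members. The CHR is found in 77.8% of mitotic windows and 3 of 15 S phase windows, and E2F matches in 29.6% and 53.3%.

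Of the 18 S phase and replication members, 14 were called higher and 4 were not called, with a median log2 fold change of 0.88. All 4 genes of G1/S control rose. Ccne1 encodes cyclin E1, which activates Cdk2 for entry into S phase. Its log2 ratios were -0.09, -0.02 and 0.09 in ob/+ and 1.09, 1.14 and 1.30 in ob/ob. The groups did not overlap and the ob/ob arrays lay close together. Ccne1 was 2.27-fold higher in ob/ob (a log2 change of 1.18 ± 0.08, SE, 3 arrays a group, limma adjusted p = 0.00266). E2f1 encodes an activating E2F, whose targets include most of this class. Its ratios were -0.05, 0.00 and 0.09 in ob/+ and 0.55, 0.89 and 0.97 in ob/ob, without overlap. The log2 fold change was 0.79 ± 0.13 (SE, limma adjusted p = 0.0163), and the call was lost on omission of either ob/+ replicate 1 or 3, or of either ob/ob replicate 2 or 3, with adjusted p up to 0.0658. E2f8, an atypical E2F that represses E2F targets late in S phase, rose by 1.09 ± 0.19 (log2, SE). Ccne2, which encodes cyclin E2, passed the test at a log2 fold change of 0.40, but rounding of its intensities of 0.04 to 0.07 to steps of 0.01 can shift that value by up to 0.55. The calls of E2f8 and Ccne2 were each lost under 5 of the 6 omissions of an array.

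The 2 genes of origin licensing rose. Cdt1 encodes the factor that loads the helicase onto origins. Its ratios were -0.15, -0.02 and -0.01 in ob/+ and 1.05, 1.73 and 1.82 in ob/ob. The groups were far apart, and 1 ob/ob array was lower than the others. Cdt1 was 3.02-fold higher (a log2 change of 1.59 ± 0.22, SE, 3 arrays a group, limma adjusted p = 0.0121), and without ob/+ replicate 1 or 3 it missed the threshold, with adjusted p up to 0.0508. Cdc6, which loads the helicase together with Cdt1, had a small change with little spread, at a log2 fold change of 0.31 ± 0.03 (SE, limma adjusted p = 0.00448). Its ob/ob ratios of 0.29 to 0.35 lay below those of Cdt1 on all 3 arrays.

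Of the 4 genes of nucleotide supply, 3 rose. Tk1, thymidine kinase of the salvage pathway, had the largest change of all members. Its ratios were -0.35, 0.00 and 0.21 in ob/+ and 1.62, 2.32 and 2.44 in ob/ob, and its sample intensity was 0.133 ± 0.021 (SD, n = 3) in ob/+ and 0.683 ± 0.227 in ob/ob. No ob/ob array came within reach of the ob/+ arrays. Tk1 was 4.52-fold higher (log2 fold change 2.18 ± 0.28, SE, limma adjusted p = 0.00938). Rrm2 encodes the small subunit of ribonucleotide reductase, the enzyme that makes deoxynucleotides. Its ratios were -0.06, 0.04 and 0.06 in ob/+ and 0.83, 1.59 and 1.72 in ob/ob. The groups did not overlap, and the log2 fold change was 1.37 ± 0.25 (SE, limma adjusted p = 0.0237). A dimmer reporter of Rrm2 did not show this change, with a log2 fold change of -0.02 ± 0.11 (SE, limma adjusted p = 0.974) at a mean intensity of 0.102, against 2.30 for the brighter one. The call of Rrm2 was lost under 5 of the 6 omissions of an array, all except that of ob/ob replicate 1, with adjusted p up to 0.0890.

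Rrm1, the large subunit of the same enzyme, was not called. Its ratios were -0.08, 0.00 and 0.08 in ob/+ and 0.09, 0.44 and 0.70 in ob/ob. The lowest ob/ob array lay just above the highest ob/+ array, and the log2 fold change was 0.41 ± 0.17 (SE, limma adjusted p = 0.172). Without ob/ob replicate 1 Rrm1 passed, at 0.57 (limma adjusted p = 0.0437). Tyms, thymidylate synthase of the de novo pathway, rose by 0.88 ± 0.16 (log2, SE), and its call was lost on omission of either ob/+ replicate 1 or 3, or of either ob/ob replicate 2 or 3, with adjusted p up to 0.0843.

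The replicative helicase and its partners were less uniform, with 5 of 8 genes called. Pcna encodes the sliding clamp that holds polymerases on DNA and had the brightest reporter of the members, with a mean intensity of 5.15 ± 0.34 (SD, n = 3) in ob/+ and 11.7 ± 4.9 in ob/ob. Its ratios were -0.06, -0.02 and 0.09 in ob/+ and 0.67, 1.25 and 1.66 in ob/ob. All ob/ob arrays lay above the ob/+ arrays, but they spread over 1 log2 unit. The log2 fold change was 1.19 ± 0.27 (SE, limma adjusted p = 0.0386). The call was lost under 5 of the 6 omissions of an array, all except that of ob/ob replicate 1, with adjusted p up to 0.127.

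The MCM proteins form the 6-subunit ring of the helicase, and their transcripts did not change by the same amount. Mcm2 had ratios of -0.30, 0.00 and 0.19 in ob/+ and 0.69, 1.10 and 1.19 in ob/ob. The groups did not overlap, and the log2 fold change was 1.03 ± 0.19 (SE, limma adjusted p = 0.0242). Mcm3 and Mcm5, whose promoter windows hold the E2F matches printed above, rose by 0.94 ± 0.19 and 0.88 ± 0.14 (log2, SE). Each of these calls was lost when ob/+ replicate 1, ob/+ replicate 3 or ob/ob replicate 3 was left out, and some with another array, with adjusted p up to 0.0861 for Mcm2, 0.104 for Mcm3 and 0.0671 for Mcm5.

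Mcm6 was not called, with ratios of -0.07, -0.06 and 0.00 in ob/+ and 0.26, 0.77 and 1.03 in ob/ob. Its groups did not overlap, but its ob/ob arrays spread widely, and the log2 fold change was 0.73 ± 0.21 (SE, limma adjusted p = 0.0708). Without ob/ob replicate 1 it was 0.94 (limma adjusted p = 0.0135). Mcm4 had a log2 fold change of 0.26 ± 0.15 and Mcm7 of -0.18 ± 0.07 (SE), with limma adjusted p of 0.311 and 0.173. Mcm7 was the only member with all ob/ob arrays below all ob/+ arrays, and its ob/ob ratios were -0.27, -0.16 and -0.14. Gins1, a subunit of the GINS complex that joins the helicase at firing origins, passed the test at 0.48 ± 0.10 (log2, SE), and its call was lost under 5 of the 6 omissions, all except that of ob/ob replicate 1, with adjusted p up to 0.113.

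Of the 34 tested mitotic members, 31 were called higher and 3 were not called, with a median log2 fold change of 1.14. The 5 genes of the mitotic cyclins, their kinase and Foxm1 all rose at least 2-fold. Cdk1 encodes the kinase that drives mitosis. Its ratios were -0.03, 0.02 and 0.03 in ob/+ and 0.77, 1.12 and 1.15 in ob/ob. The groups were clearly apart, and the log2 fold change was 1.00 ± 0.11 (SE, limma adjusted p = 0.00703). Ccnb1 encodes cyclin B1, the partner of Cdk1 at the onset of mitosis, and had the tightest values of these 5 genes. Its ratios were 0.00, 0.04 and 0.05 in ob/+ and 1.00, 1.09 and 1.14 in ob/ob. No array came near the other group, and the log2 fold change was 1.04 ± 0.04 (SE, limma adjusted p = 0.00128). A dimmer Ccnb1 reporter had a log2 fold change of 0.86 (limma adjusted p = 0.0728).

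Foxm1 encodes the transcription factor of late cell cycle genes. Its ratios were -0.10, -0.05 and 0.14 in ob/+ and 1.07, 1.68 and 1.73 in ob/ob. The groups did not overlap, and the log2 fold change was 1.499 ± 0.205 (SE, limma adjusted p = 0.0112). Without ob/+ replicate 3 its adjusted p was 0.0502. Ccnb2, which encodes cyclin B2, rose by 1.43 ± 0.17, and Ccna2, which encodes cyclin A2, the cyclin of S phase and early mitosis, rose by 1.32 ± 0.18 (log2, SE). The call of Ccna2 was lost without ob/ob replicate 3 (limma adjusted p = 0.0527).

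All 9 genes listed under mitotic kinases were called higher, with log2 fold changes of 0.36 to 2.07. Aurkb encodes Aurora B, the kinase of the chromosomal passenger complex that corrects faulty attachments of chromosomes to the spindle. Its ratios were -0.49, 0.00 and 0.00 in ob/+ and 1.44, 2.10 and 2.19 in ob/ob, without overlap. Aurkb was 4.21-fold higher (a log2 change of 2.07 ± 0.26, SE, 3 arrays a group, limma adjusted p = 0.00921), at a low intensity of 0.070 ± 0.017 (SD) in ob/+ and 0.270 ± 0.070 in ob/ob. Pbk encodes a mitotic protein kinase that is scarce in resting tissue. Its ratios were 0.00, 0.00 and 0.22 in ob/+ and 1.49, 1.81 and 2.22 in ob/ob. The groups did not overlap, and the log2 fold change was 1.76 ± 0.21 (SE, limma adjusted p = 0.00781).

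Among the other genes of this list, Bub1, of the spindle checkpoint, rose by 1.71 ± 0.36 (log2, SE), at intensities of 0.02 to 0.08 where rounding can shift the value by up to 1.01. Melk, a kinase of dividing and embryonic cells, rose by 1.00 ± 0.22 and Aurka, which encodes Aurora A of the spindle poles, by 0.99 ± 0.13. Plk1, a kinase needed from mitotic entry to cytokinesis, rose by 0.72 ± 0.13, and Bub1b, another gene of the spindle checkpoint, by 0.71 ± 0.10. The smallest changes were those of Plk4, which controls centriole duplication, at 0.43 ± 0.09, and Ttk, the checkpoint kinase MPS1, at 0.36 ± 0.09. The calls of Bub1, Melk, Plk1 and Ttk were each lost under 5 of the 6 omissions of an array, that of Plk4 under 4 and that of Bub1b under 2, with ob/+ replicates 1 and 3 among the arrays whose omission ended each of these calls. A dimmer reporter of Aurka had a log2 fold change of 0.67 (limma adjusted p = 0.211).

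Of 9 genes of chromosome structure and the kinetochore, 8 rose. Cdca8, which encodes borealin, a subunit of the chromosomal passenger complex, had ratios of -0.39, 0.04 and 0.08 in ob/+ and 1.43, 1.93 and 2.00 in ob/ob. Its log2 fold change was 1.87 ± 0.21 (SE, limma adjusted p = 0.00736). Birc5, which encodes survivin of the same complex, had ratios of -0.21, 0.00 and 0.13 in ob/+ and 1.49, 1.93 and 2.08 in ob/ob. Neither gene had overlapping groups, and the log2 fold change of Birc5 was 1.86 ± 0.19 (SE, limma adjusted p = 0.00571). Cdca5 encodes sororin, which protects the cohesion of sister chromatids. Its ratios were -0.14, -0.07 and 0.07 in ob/+ and 1.43, 1.78 and 1.97 in ob/ob, and its log2 fold change was 1.77 ± 0.15 (SE, limma adjusted p = 0.00452). Again the groups lay apart.

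Top2a encodes topoisomerase II alpha, which untangles sister chromatids. Its ratios were 0.00 on all 3 ob/+ arrays and 0.83, 1.12 and 1.51 in ob/ob. The ob/+ ratios coincide because the intensities, 0.06 to 0.07, are given in steps of 0.01. The log2 fold change was 1.15 ± 0.18 (SE, limma adjusted p = 0.0157), and the call was lost on leaving out any ob/+ array or ob/ob replicate 3, with adjusted p up to 0.0645. Cenpe, a kinetochore motor, rose by 1.52 ± 0.13, Cenpa, the histone H3 variant of centromeres, by 1.24 ± 0.15, and Ncapg, a condensin I subunit, by 1.15 ± 0.23 (log2, SE). Ncapd2, another condensin I subunit, had a log2 fold change of 0.34 ± 0.05 on its brightest reporter (limma adjusted p = 0.0146) and 0.03 on a dimmer one (limma adjusted p = 0.607). The call of Ncapg was lost on leaving out any ob/+ array or ob/ob replicate 3, with adjusted p up to 0.105.

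Mki67, which encodes the proliferation marker Ki-67, did not pass the test. Its ratios were -0.01, 0.10 and 0.20 in ob/+ and 0.12, 0.60 and 0.82 in ob/ob, from intensities of 1.16 ± 0.13 (SD, n = 3) and 1.49 ± 0.34. The lowest ob/ob array lay within the range of the ob/+ arrays. The log2 fold change was 0.42 ± 0.20 (SE, limma adjusted p = 0.220). Without ob/ob replicate 1 it was 0.61 (limma adjusted p = 0.0380).

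Of 9 genes of the spindle and of cytokinesis, 7 rose. Stmn1, which encodes the microtubule destabiliser stathmin, rose by 1.27 ± 0.22, and Nusap1, a spindle microtubule binder, by 1.25 ± 0.16 (log2, SE). Racgap1 and Ect2, which together place the cleavage furrow through RhoA, rose by 1.17 ± 0.26 and 1.13 ± 0.17, and Prc1, which bundles the midzone microtubules, rose by 0.94 ± 0.13. The kinesins Kif11, which separates the spindle poles, and Kif20a, which acts in cytokinesis, rose by 0.65 ± 0.12 and 0.62 ± 0.06. The calls of Stmn1 and Racgap1 were lost under 5 of the 6 omissions of an array and that of Kif11 under 4, with ob/ob replicate 3 and all 3 ob/+ arrays among them. The calls of Ect2 and Prc1 were lost without ob/ob replicate 3.

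Tpx2 and Kif23 were not called. Tpx2 encodes an activator of Aurora A, and its ratios were 0.00 on all 3 ob/+ arrays and 0.00, 0.42 and 0.58 in ob/ob. The groups touched, and the log2 fold change was 0.33 ± 0.16 (SE, limma adjusted p = 0.221) at a mean intensity of 0.045, where rounding can shift it by up to 0.73. Its sample intensity alone, without the pool, was lower in ob/ob (0.053 ± 0.006 in ob/+ and 0.037 ± 0.006 in ob/ob, SD, n = 3). Kif23, the kinesin partner of Racgap1, had a log2 fold change of -0.03 ± 0.07 (SE, limma adjusted p = 0.855), with overlapping groups. Cdc20, the activator of the anaphase-promoting complex, rose by 1.06 ± 0.14, and Cdca3, which promotes mitotic entry, by 1.36 ± 0.17 (log2, SE).

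The median change was larger in the mitotic members than in the S phase and replication members. The medians of log2 fold change differed by 0.26, and 21 of 34 mitotic members and 7 of 18 S phase members were called at least 2-fold higher. The order held on each ob/ob array: the class medians of the log2 ratio were 0.80 and 0.55 on ob/ob replicate 1, 1.29 and 1.05 on replicate 2 and 1.12 and 0.96 on replicate 3. On the ob/+ arrays the mitotic median minus the S phase median was 0.03, 0.00 and -0.05. Leaving out an array moved the difference of 0.26 between 0.19 and 0.29, and after quantile normalization it was 0.13, from medians of 0.73 and 0.61. No test was made of this difference, because the members were chosen with results of these data known. Subgroups of the classes overlapped. Mitotic medians were 1.32 (cyclins, Cdk1 and Foxm1), 1.24 (chromosome and kinetochore), 1.21 (ubiquitin ligase and entry), 0.99 (mitotic kinases) and 0.94 (spindle and cytokinesis). S phase medians were 1.13 (nucleotide supply), 0.95 (origin licensing), 0.94 (G1/S control) and 0.80 (helicase and clamp). The mitotic reporters were the dimmer ones, with a median intensity of 0.355 against 0.548, and 4 mitotic members and 1 S phase member had a mean intensity under 0.1.

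**Figure D3:**
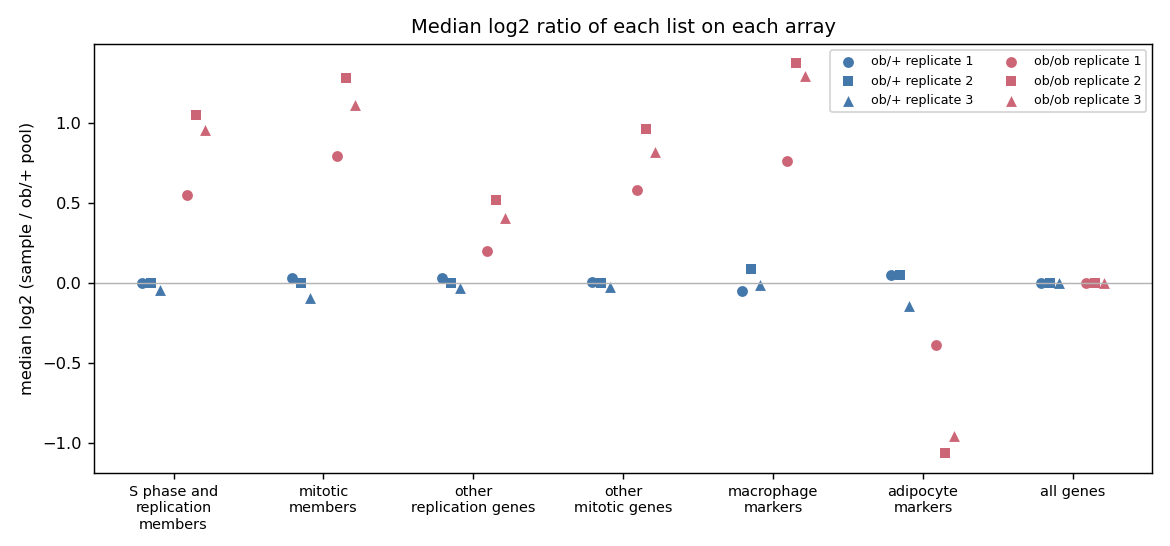
Median log2 ratio of each gene list on each array (vertical axis, sample over lean pool). Blue symbols are ob/+ and red symbols ob/ob, and the shape gives the replicate number. The mitotic median exceeds the S phase median on each ob/ob array, and ob/ob replicate 1 has the lowest median of the 3 ob/ob arrays in both member classes.

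Other genes of the same pathways, listed by function, had the same order of class medians. Of 44 other replication genes tested, 19 were called higher and 0 lower, with a median log2 fold change of 0.34. Orc1, a subunit of the origin recognition complex, had ratios of -0.15, 0.00 and 0.00 in ob/+ and 1.00, 1.00 and 1.28 in ob/ob, and rose by 1.14 ± 0.10 (log2, SE, limma adjusted p = 0.00448). Its groups did not overlap. Asf1b, a histone chaperone of replicating chromatin, rose by 1.57 ± 0.16, Uhrf1, which guides maintenance of DNA methylation, by 1.55 ± 0.17, and Pole, the catalytic subunit of polymerase epsilon, by 0.45 ± 0.05.

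Of 56 other mitotic genes tested, 34 were called higher and 2 lower, with a median of 0.78. Gtse1, a microtubule-associated protein of G2 and mitosis, had ratios of -0.26, 0.00 and 0.00 in ob/+ and 1.70, 1.83 and 1.91 in ob/ob. The groups were far apart, and the log2 fold change was 1.90 ± 0.10 (SE, limma adjusted p = 0.00176). Spc25, of the NDC80 kinetochore complex, rose by 1.68 ± 0.11, Kif22, a kinesin that binds chromosomes, by 1.35 ± 0.10, and the centrosomal kinase Nek2 by 1.23 ± 0.08 (log2, SE). The 2 that fell were Pttg1, which encodes securin, the inhibitor of separase, at -0.56 ± 0.10, and Ncapd3, a condensin II subunit, at -0.48 ± 0.07, with limma adjusted p of 0.0223 and 0.0128. These 2 were named after their values were seen, and Pttg1 lost its call on omission of any ob/+ array or of ob/ob replicate 3, with adjusted p up to 0.0815. With an array omitted, the count of 34 was 15 (ob/+ replicate 1), 17 (ob/+ replicate 3) or 15 (ob/ob replicate 3), and omission of ob/ob replicate 3 took the 19 replication genes to 12.

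Among 30 genes of the cyclin-dependent kinases, E2F factors and their inhibitors that are not members, 7 were called higher and 1 lower, with a median of 0.21. Both sides of the control of division were among the 7. The CDK inhibitor gene Cdkn2b, which encodes p15, had ratios of -0.22, -0.04 and 0.22 in ob/+ and 1.34, 1.54 and 1.81 in ob/ob, and its log2 fold change was 1.58 ± 0.17 (SE, limma adjusted p = 0.00664). Ccnd2, which encodes cyclin D2, an activator of Cdk4 and Cdk6, had ratios of -0.06, -0.05 and -0.05 in ob/+ and 0.86, 0.95 and 1.28 in ob/ob, and its log2 fold change was 1.08 ± 0.12 (SE, limma adjusted p = 0.00668). Neither gene had overlapping groups. The inhibitor gene Cdkn1c, which encodes p57, went the other way, with ratios of -0.29, -0.03 and 0.09 in ob/+ and -1.87, -1.57 and -1.36 in ob/ob and a log2 fold change of -1.53 ± 0.17 (SE, limma adjusted p = 0.00699). Lin9, a core subunit of MuvB, rose by 0.76 ± 0.10, and the remaining calls were Cdkn1a, which encodes the inhibitor p21, at 1.87 ± 0.27, Cdk6, a partner of the D-type cyclins, at 1.18 ± 0.16, the activating E2f2 at 0.99 ± 0.22 and the repressive E2f6 at 0.68 ± 0.12 (log2, SE), named after their values were seen. Omission of ob/+ replicate 1 took the 7 calls to 4, as did that of ob/ob replicate 3. Cdkn1a lost its call in the latter case (adjusted p = 0.0608), Cdk6 in the former (adjusted p = 0.0502), E2f6 under 3 omissions including both and E2f2 under 5 including both.

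**Figure D4:**
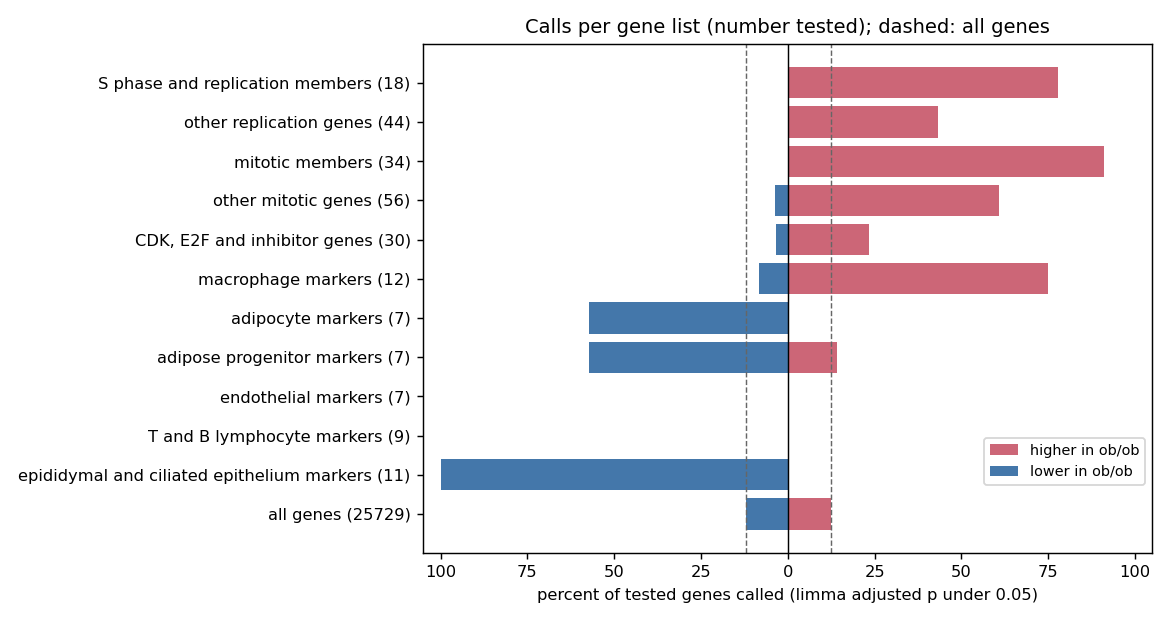
Percent of the tested genes of each list called higher (right) or lower (left) in ob/ob by limma, with the number tested in brackets and dashed lines at the shares of all genes (12.5% higher, 12.1% lower). The member lists and the other mitotic and replication genes lie mostly to the right, and the CDK, E2F and inhibitor genes have 7 calls to the right and 1 to the left.

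The rise was smallest in the same ob/ob sample for most called members. Replicate 1 was the lowest of the 3 ob/ob arrays for 42 of the 45 members called higher (93.3%), where it was the lowest for 44.5% of all genes called higher. Marker lists of other cells in the tissue did not all follow this order. The median log2 ratio of 12 macrophage markers was 0.76 in ob/ob replicate 1, 1.38 in replicate 2 and 1.30 in replicate 3. The median of 7 adipocyte markers was -0.39, -1.06 and -0.95 in the same order. In replicate 1 both of these lists were nearest to the lean level, as were both member classes. The 7 adipose progenitor markers were not, with medians of -0.55 in replicate 1, -0.43 in replicate 2 and -0.54 in replicate 3. The medians in the same order were 0.00, 0.22 and 0.22 for the 9 lymphocyte markers, 0.02, -0.11 and -0.11 for the 7 endothelial markers and -4.68, -5.15 and -5.22 for the 11 markers of epididymal and ciliated epithelium. These lists too were nearest to the lean level in replicate 1, so among the marker lists only the progenitor list departed. The part of cell makeup in these results was not tested. In whole tissue, more cells of a type and more RNA per cell cannot be told apart.

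Over the groups, 9 of the 12 macrophage markers were called higher and 1, Cd163, lower, and their summed intensity was 32.2 to 33.6 in ob/+ and 52.9 to 107.9 in ob/ob. Of 9 tested T and B lymphocyte markers 0 were called, and their summed intensity was 1.83 to 2.56 in ob/+ and 1.97 to 2.22 in ob/ob. These markers were dim, with a median intensity of 0.068 and 5 of the 9 under 0.1. The shift that rounding allows had a median of 0.44, against a median log2 fold change of 0.15, so small changes could not be seen. Of 7 adipose progenitor markers 4 were lower (Pdgfra, Dpp4, Ly6a and Pi16) and 1, Pdgfrb, was higher, with summed intensities of 14.6 to 16.5 and 14.6 to 16.2. Of 7 endothelial markers 0 were called, with summed intensities of 9.13 to 11.4 in ob/+ and 7.86 to 9.51 in ob/ob. Of 7 tested adipocyte markers 4 were lower (Fabp4, Slc2a4, Adipoq and Retn), and their summed intensity was 96.8 to 106.9 in ob/+ and 52.5 to 69.3 in ob/ob. Adipoq, which encodes the adipocyte hormone adiponectin, was bright in both groups, at 28.6 ± 1.7 (SD, n = 3) in ob/+ and 12.1 ± 2.1 in ob/ob. All 11 markers of epididymal and ciliated epithelium were lower, with a summed intensity of 30.1 to 65.3 in ob/+ and 1.25 to 1.69 in ob/ob. These transcripts were abundant in the ob/+ samples and scarce in ob/ob, and their part in the member values was not tested.

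The size of the change was not tied to a narrow range of brightness. The mean sample intensity of the members ran from 0.045 to 8.42 in the authors' units, with a median of 0.406, where the median array intensity was 0.11 to 0.15. For 44 of the 45 called members the change exceeded the most that rounding of the intensities could move it, and the exception was Ccne2. Across all reporters, pairs of ob/ob arrays correlated in log2 ratio at r = 0.831 to 0.893, and pairs of ob/+ arrays at r = -0.309 to 0.064. Reporters are not independent replicates, and the labels state the dye of each channel, so the direction was kept.

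**Figure D5:**
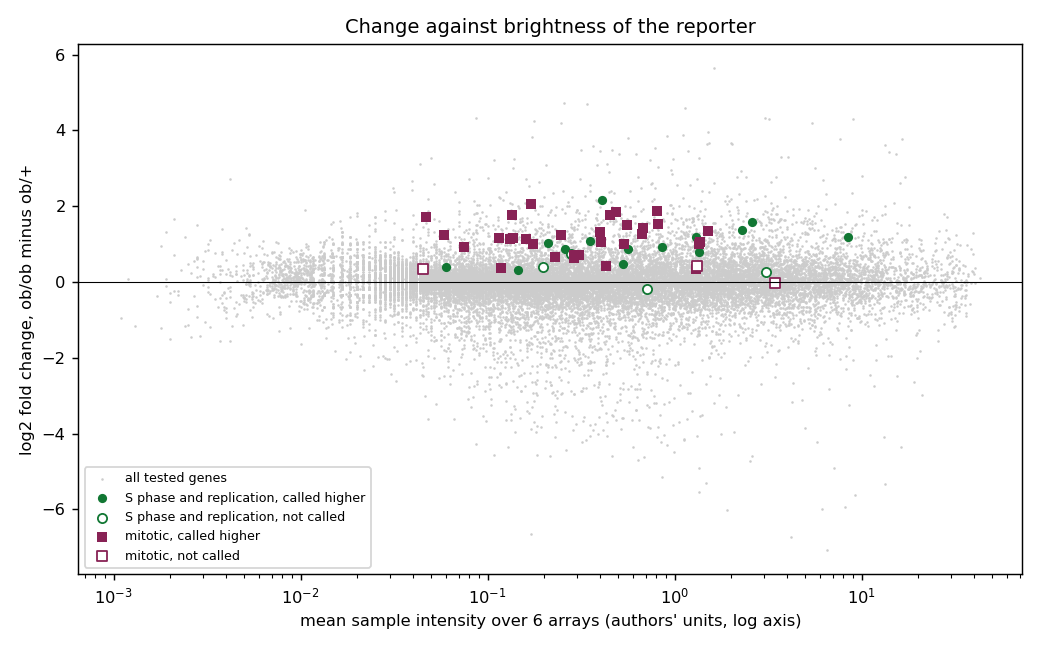
Log2 fold change (ob/ob minus ob/+) against mean sample intensity over 6 arrays (log axis, authors' units). Grey points are all 25729 genes, green circles the S phase and replication members and purple squares the mitotic members, open where not called. The called members lie above 0 at intensities from under 0.1 to over 8, and the open symbols are spread over the same range.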

How the data were processed

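Per the labels, each sample (Cy5) and combined ob/+ RNA (Cy3) were hybridised on 6 two-colour arrays. The scanner software was Agilent Feature Extraction 8.5.1.1, as the submitters' processing notes state. The authors deposited normalized intensities of both channels, on a linear scale and mostly in steps of 0.01. The sources used here do not give the background correction or normalization. They also deposited a p-value per reporter and array, whose test is not stated, and the same ratios on a log10 scale. These carry replicate numbers and, converted to log2, served the analyses that needed a replicate number.

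Log2 of sample over pool was compared as ob/ob minus ob/+, two-sided, with lmFit and eBayes of limma 3.58.1 under R 4.3.3, and Benjamini-Hochberg adjustment ran over 39407 of 39507 reporters. The other 100 lacked values on 2 arrays of a group. Prior degrees of freedom were 0.86. Of 30162 reporters with a symbol, 3147 had it updated through a RefSeq table. No per-sample column was left unassigned (0). Column numbers of the deposited table differ from the replicate numbers, so columns were assigned to groups. That table calls the controls wt, and the series' text names islets of db/db mice. In both cases the labels decided. The script was tested on simulated data.

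Members, lists and alternatives were chosen with earlier results of these data known. Full values are given for 9 set members, the 5 largest called and 2 largest uncalled changes of each class, and the 4 genes with the lowest p of each other pathway list. Promoters were those of the 2 members of each class with the lowest p, plus 4 added after seeing the matches. Alternatives concerned normalization, filters, priors, array weights, the replicate block, omitted arrays, reporter choice and thresholds. Python 3.11.15, pandas 2.3.3 and matplotlib 3.10.9 made the tables and figures.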

Additional observations from a re-analysis of the deposited data

Results flagged for a closer look

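The deposited p-values compare the sample with the lean pool on a single array and were not used in the comparisons above. They come from the same arrays as the log2 ratios, so they are not independent support for the calls. A deposited p under 0.01 was given on all 3 ob/ob arrays for 36 of the 52 members (69.2%), where 13.6% of all genes had this, and on at least 1 ob/ob array for 47 members. On the ob/+ arrays, set against a pool of their own genotype, 0 members had a deposited p under 0.01 on any array, where 2.79% of all genes had one on at least 1. With so low a share, 0 of 52 does not set the members apart from other genes. The 5 members without a deposited p under 0.01 on any ob/ob array were Cdc6, Ncapd2, Tpx2, Kif23 and Mcm7.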

How the results depend on the processing

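The 45 members called higher had a log2 fold change above 0 in 849 of 850 values over all alternatives, the exception being the dimmest reporter of Rrm2, at -0.017. This count does not measure stability of direction. Thresholds, priors and filters on dim reporters leave the fold change of a reporter as it was. The 270 values with an array omitted had to be above 0. The number of calls varied between alternatives, and except for the stricter threshold the cause was not tested. After quantile normalization 7 members were called (1 S phase, 6 mitotic), with medians of 0.61 and 0.73 and a difference of 0.13, and 2 other replication, 4 other mitotic and 0 CDK, E2F and inhibitor genes were called higher. At an adjusted p under 0.01 the counts were 17, 3, 14, 8, 11 and 3 in the order all, S phase, mitotic, other replication, other mitotic and CDK genes. With the replicate block, 12 members (2 and 10), 3 other replication genes and 11 other mitotic genes were called, against 5.02% of all genes called higher. Deviations of same-numbered samples from their group means had r = 0.06, -0.06 and 0.00. With 3 samples a group, these values cannot decide whether the numbers pair the samples. Leaving out 1 array gave 22 to 47 members, 3 to 15 S phase and 18 to 32 mitotic members, 12 to 22 other replication, 15 to 35 other mitotic and 4 to 8 CDK genes, medians of 0.79 to 1.01 and 1.00 to 1.27, and a class difference of 0.19 to 0.29. With reporters averaged, or the dimmest reporter taken, the class difference was 0.31. Tpx2 turned to -0.29 with the sample channel alone, and Kif23 ran from -0.099 to 0.021 when 1 array was left out, neither called. Mcm6 passed without ob/ob replicate 1, under both filters on dim reporters, under array weights and in the sample channel. The series matrix ratios, filters on dim reporters, other priors and array weights gave 42 to 46 calls, where 12.5% to 20.1% of all genes were called higher. Coarse rounding limits the members under an intensity of 0.1.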
